A study of Mus musculus with 9 samples.

Results

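Macrophage, monocyte and MHC class II genes were examined in adult mouse hearts, of which the right ventricle and septum were dissected. The set was a list of 35 entries covering leukocyte adaptors, macrophage receptors, complement C1q, lysosomal proteins, monocyte markers, MHC class II and the chemokines and growth factor that act on these cells. Each gene was read at the probe set that the array annotation gives to that gene alone and that had the highest mean over all arrays. Such a probe set was found for 33 of the 35 entries, out of 19935 genes in all. The entry Lyve1-na is not a gene symbol, and the probe sets of Ly6c2 carry several symbols, so both were left out. The genotype of the 5 wild-type hearts was Ezh2f/f with no Cre, and that of the 4 Ezh2-deficient hearts was Ezh2f/f;Mef2cAHF::Cre, in which an anterior heart field enhancer of Mef2c drives Cre in embryonic progenitors of the right ventricle, septum and outflow tract. Both groups were adult, on a mixed C57BL/6 background, and the exact age is not given in the sources used here. The titles of the wild-type samples read f/wt where the genotype field reads f/f, and this was not resolved. RNA of 1 heart was hybridised to each of 9 Affymetrix arrays, and all values are on a log2 scale, on which a difference of 1 is a doubling.

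Macrophages are phagocytes that live in every organ, and the heart holds a resident population laid down before birth together with cells that arrive later from blood monocytes. Antigen-presenting cells display peptides on MHC class II, whose alpha and beta chains are escorted by the invariant chain Cd74. Macrophage survival depends on the receptor Csf1r and its ligand Csf1, and monocytes are drawn into tissue through Ccr2 by chemokines such as Ccl2 and Ccl7. Ezh2 is the methyltransferase of Polycomb repressive complex 2.

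Heart muscle was borne out by its markers, since 10 of 10 heart muscle genes had a mean over the hearts above every array median. Of these, Myl7 varied widely, from 6.97 to 11.1 in wild-type and from 8.07 to 11.6 in Ezh2-deficient hearts. The count does not check which part of the heart was dissected. Ezh2 itself averaged 8.73 ± 0.12 (SD, n = 5) in the wild-type group and 8.88 ± 0.11 (SD, n = 4) in the Ezh2-deficient group, so its probe set does not check the genotype labels (difference 0.15, SE 0.07, limma adjusted p = 0.485). Only the Ezh2-deficient hearts carried Cre, so loss of Ezh2 and the transgene cannot be told apart. By Y-linked genes and Xist, 1 wild-type heart (heart 4) and 2 Ezh2-deficient hearts (hearts 1 and 3) came from females. Xist read 11.2, 10.8 and 10.3 in these hearts and 5.09 to 5.49 in the others. The sample titles carry a letter, e on 4 arrays (wild-type hearts 1 and 2, Ezh2-deficient hearts 1 and 4) and x on the other 5, and the labels do not say what it means. In whole tissue, fewer cells of a type and less RNA per cell cannot be told apart.

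None of the macrophage and antigen presentation genes passed the test between genotypes. By limma 0 of 33 passed at an adjusted p of 0.05, against 0.0347% of all probe sets. At an unadjusted p under 0.05, 2 of 33 were higher in Ezh2-deficient hearts and 0 were lower, where 5.77% of all genes were higher and 5.78% lower, so the share of the set lay near that background. The wild-type and Ezh2-deficient ranges overlapped at all 33 genes, whereas among all genes 2.1% had every Ezh2-deficient heart above every wild-type heart and 2.19% had every one below, 4.28% in either direction. The direction was uneven all the same: 27 of 33 genes had a higher mean in Ezh2-deficient hearts, against 48.3% of all genes, and the median difference was 0.14 against -0.003 over all genes. The 29 genes outside MHC class II had a median difference of 0.16, with 27 of 29 higher in mean, and all 4 class II genes had a lower mean, with a median of -0.12. These counts describe the set and were not tested. The median over the 33 genes was 0.067 with array weights and 0.063 with the mean of Y-linked genes as a covariate.

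**Figure D1:**
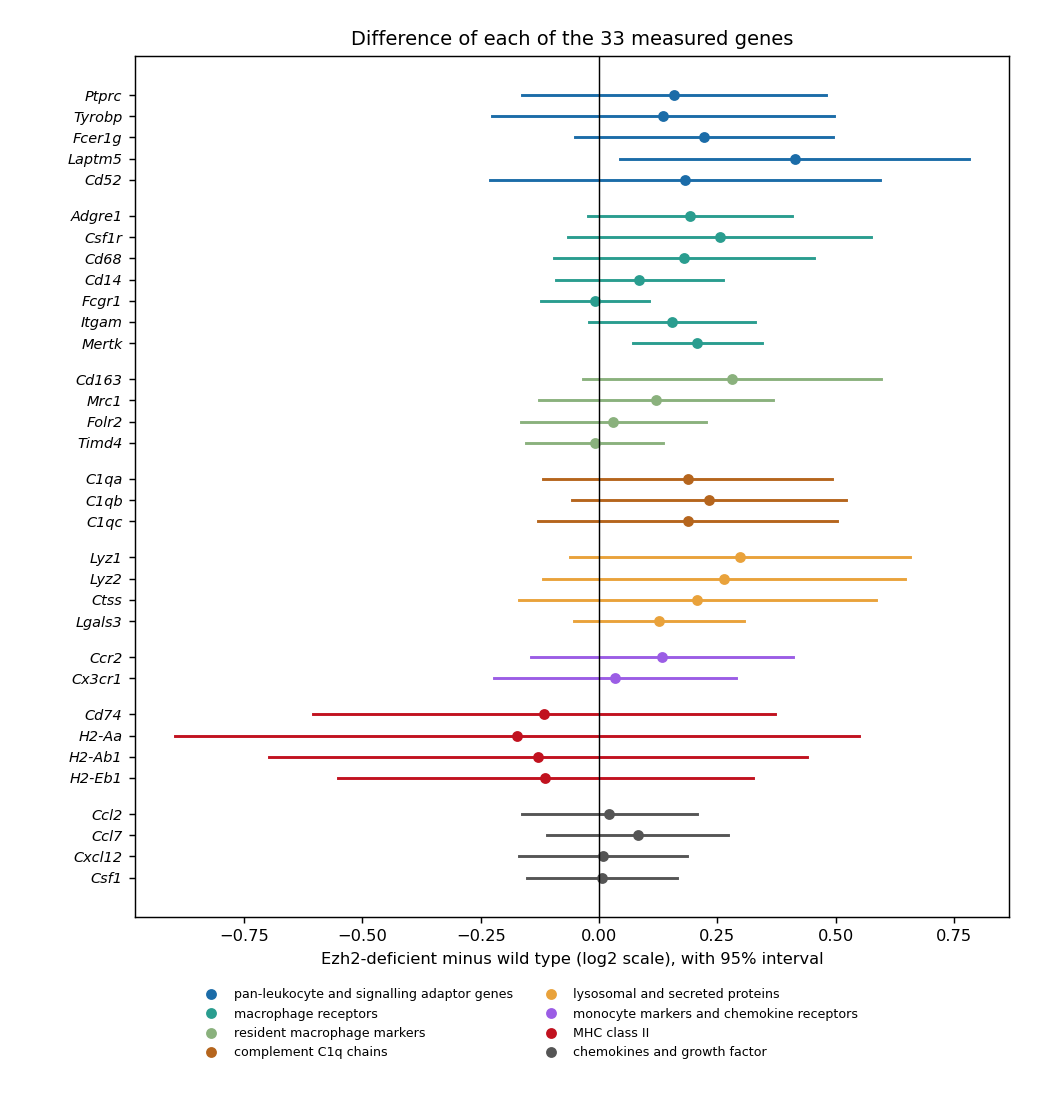
Difference between Ezh2-deficient and wild-type hearts (x axis, log2 scale) for each of the 33 measured genes (y axis), with limma's 95% interval as a line and colour for the role of the gene. Intervals of 31 genes cross 0, those of Laptm5 and Mertk lie above it, and the 4 class II genes have the widest intervals.

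The genes of the set varied more over the hearts than genes in general. The median range of a member over the 9 arrays was 0.71, against 0.34 over all genes. This range includes any difference between the genotypes. The genes compared were not matched for expression level, and 26 of the 33 members had a mean over the hearts above every array median. Wild-type heart 5 held the lowest value at 18 of 33 members (54.5%), whereas it was lowest at 15.9% of all genes. Ezh2-deficient heart 3 held the highest value at 14 members (42.4%, against 18.8% of all genes) and Ezh2-deficient heart 2 at 8 (24.2%, against 8.45%). The mean over the 29 genes outside class II, each centred on the midpoint of its group means, was -0.04, -0.09, -0.07, 0.10 and -0.29 in wild-type hearts 1 to 5 and -0.04, 0.17, 0.24 and -0.07 in Ezh2-deficient hearts 1 to 4. Ezh2-deficient hearts 1 and 4 therefore lay among wild-type hearts 1 to 3, Ezh2-deficient hearts 2 and 3 were the highest and wild-type heart 5 the lowest. The median difference of the 33 genes was 0.07 without Ezh2-deficient heart 3 and 0.09 without wild-type heart 5. Without both it was 0.02, as a description only, since these hearts were picked as the extremes after the values were seen, with 19 of 33 higher in mean against 45% of all genes.

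The difference was also uneven across the title letters. Among the 4 arrays of letter e, 15 of 33 genes had a higher mean in Ezh2-deficient hearts (43.4% of all genes) and the median difference was -0.01. Among the 5 arrays of letter x, 30 of 33 had a higher mean (52.4% of all genes) and the median was 0.27. Ezh2-deficient hearts 2 and 3 and wild-type heart 5 all carry letter x. Whether the 2 letters differ was not tested.

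**Figure D2:**
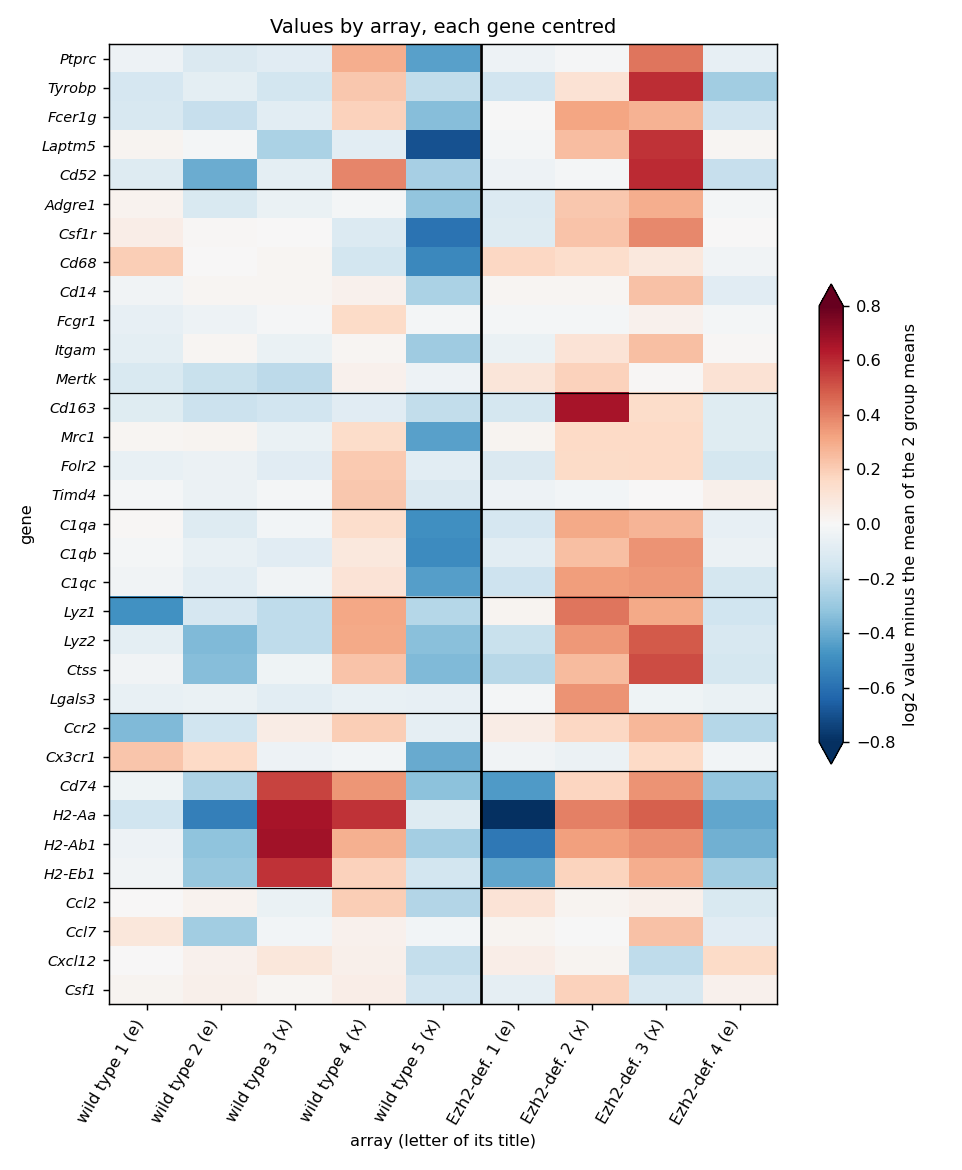
Value of each of the 33 genes (rows, ordered by role) in each of the 9 hearts (columns, with the title letter), as log2 value minus the midpoint of the 2 group means; red is above and blue below, and colours saturate at 0.8. Wild-type heart 5 is blue at most genes, Ezh2-deficient hearts 2 and 3 are red, and the class II rows are red in wild-type hearts 3 and 4 and Ezh2-deficient hearts 2 and 3 and blue in the hearts of letter e.

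Among pan-leukocyte genes, Laptm5 had the largest difference of the set. Laptm5 encodes a lysosomal membrane protein of blood cells. It read 9.07, 9.03, 8.80, 8.96 and 8.35 in wild-type hearts 1 to 5 and 9.03, 9.30, 9.63 and 9.06 in Ezh2-deficient hearts 1 to 4. The 2 groups overlapped between 9.03 and 9.07, with Ezh2-deficient hearts 2 and 3 above every wild-type heart. The difference was 0.41 (SE 0.17, 1.33-fold, limma adjusted p = 0.411), with p = 0.0714 by exact permutation over the hearts (two-sided). Among arrays of letter e it was -0.003, among those of letter x 0.76, and it was 0.17 without wild-type heart 5 and Ezh2-deficient heart 3.

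The other leukocyte genes were spread in the same way. Ptprc encodes CD45, the phosphatase on all white blood cells, and differed by 0.16 (SE 0.14). The signalling adaptors Tyrobp, which encodes DAP12, and Fcer1g, the Fc receptor gamma chain, differed by 0.14 (SE 0.16) and 0.22 (SE 0.12). Cd52, which encodes a small surface glycoprotein of lymphocytes and monocytes, differed by 0.18 (SE 0.18). Ezh2-deficient heart 3 was the highest of all hearts for Ptprc, Tyrobp and Cd52, at 8.56, 8.49 and 7.67. Wild-type heart 4 was the highest wild-type heart for Ptprc, Tyrobp, Fcer1g and Cd52. Without Ezh2-deficient heart 3 the difference of Tyrobp was -0.04.

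Of 7 macrophage receptors, Mertk had the smallest p. Mertk encodes a receptor tyrosine kinase through which macrophages take up dying cells. It read 7.37, 7.32, 7.29, 7.54 and 7.46 in wild-type hearts and 7.60, 7.69, 7.51 and 7.62 in Ezh2-deficient hearts. Ezh2-deficient hearts 1, 2 and 4 lay above every wild-type heart, and heart 3 lay just below wild-type heart 4. The difference was 0.21 (SE 0.06, 1.15-fold, limma adjusted p = 0.277; exact permutation p = 0.0238). The difference was 0.26 among arrays of letter e, 0.17 among those of letter x, and between 0.18 and 0.24 when each heart was left out in turn. The lowest adjusted p over all other settings was 0.0688, with array weights in limma. Heart 3, which was highest at many other genes of the set, was thus the lowest Ezh2-deficient heart at Mertk.

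The other 6 macrophage receptors gave no call either, and Ezh2-deficient heart 3 was the lowest Ezh2-deficient heart at none of them. Adgre1, an adhesion receptor widely used to mark mouse macrophages, differed by 0.19 (SE 0.10), and Csf1r, the receptor for colony-stimulating factor 1, by 0.25 (SE 0.14). Both read highest in Ezh2-deficient hearts 3 and 2 and lowest in wild-type heart 5. Itgam, the alpha chain of the CR3 integrin, differed by 0.15 (SE 0.08), Cd68, a lysosomal glycoprotein, by 0.18 (SE 0.12), and Cd14, the lipopolysaccharide co-receptor, by 0.08 (SE 0.08). Fcgr1, the high-affinity receptor for IgG, differed by -0.008 (SE 0.05) and read exactly 6.98 in 3 of the 4 Ezh2-deficient hearts. In all hearts, Cd14 and Fcgr1 read below every array median. The adjusted p of these 6 genes lay between 0.519 and 0.976.

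Of the markers of resident macrophages, Cd163 was high in 2 hearts. Cd163 encodes the scavenger receptor for haemoglobin bound to haptoglobin. It read 8.25 to 8.36 in wild-type hearts and 8.31, 9.10, 8.59 and 8.35 in Ezh2-deficient hearts 1 to 4, so hearts 1 and 4 lay within the wild-type range and hearts 2 and 3 above it. The difference was 0.28 (SE 0.14, limma adjusted p = 0.519, exact permutation p = 0.0476) and fell to 0.11 without Ezh2-deficient heart 2. Mrc1, the mannose receptor, differed by 0.12 (SE 0.11), and Folr2, folate receptor beta, by 0.03 (SE 0.09). Timd4, a receptor for phosphatidylserine, differed by -0.009 (SE 0.06). None of the 4 genes separated the genotypes.

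The chains of C1q, the subunit that starts the classical complement pathway and is made largely by macrophages, varied together across hearts. C1qa, C1qb and C1qc are neighbouring genes, with 0 other protein-coding genes between them in RefSeq. C1qa read 9.66, 9.55, 9.63, 9.79 and 9.16 in wild-type hearts 1 to 5 and 9.52, 9.96, 9.93 and 9.59 in Ezh2-deficient hearts 1 to 4. C1qb read 9.56, 9.52, 9.48, 9.65 and 9.07 in wild-type and 9.49, 9.81, 9.93 and 9.52 in Ezh2-deficient hearts. C1qc read 9.61, 9.55, 9.61, 9.74 and 9.19 in wild-type and 9.47, 9.96, 9.98 and 9.49 in Ezh2-deficient hearts. In each of the 3, Ezh2-deficient hearts 2 and 3 lay above every wild-type heart, hearts 1 and 4 lay within the wild-type range, and wild-type heart 5 was lowest. The differences were 0.19 (SE 0.14), 0.23 (SE 0.13) and 0.19 (SE 0.14), with limma adjusted p-values of 0.656, 0.561 and 0.665. Within letter e they were -0.06, -0.03 and -0.10, and within letter x 0.41, 0.47 and 0.46.

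Lysosomal and secreted products of macrophages had a higher mean at 4 of 4 genes, and none separated the genotypes. Lyz1 and Lyz2 are neighbouring and closely related lysozyme genes, whose probes may not tell them apart. Lyz1 differed by 0.30 (SE 0.16) and Lyz2 by 0.26 (SE 0.17), with adjusted p-values of 0.549 and 0.618. Ctss, which encodes cathepsin S, the protease that trims the invariant chain for class II loading, differed by 0.21 (SE 0.17). Lyz2 and Ctss read highest in Ezh2-deficient heart 3, at 11.15 and 10.32, and Lyz1 in heart 2, at 8.24. Lgals3, which encodes the galactose-binding lectin galectin-3, read 7.78 to 7.82 in wild-type hearts and 7.85, 8.23, 7.83 and 7.82 in Ezh2-deficient hearts. Its difference was 0.13 (SE 0.08, limma adjusted p = 0.608, exact permutation p = 0.0159). That permutation p was the smallest of the set, below that of Mertk. The difference was 0.03 without Ezh2-deficient heart 2, whereas heart 3 read just above the wild-type range.

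Of the chemokine receptors, Ccr2 marks monocytes that enter tissue, and Cx3cr1 marks patrolling monocytes and resident macrophages. Ccr2 read 5.31 to 5.85 in wild-type and 5.43 to 5.93 in Ezh2-deficient hearts, below every array median, and differed by 0.13 (SE 0.12). Cx3cr1 read 7.91 to 8.53 and 8.26 to 8.47, and differed by 0.03 (SE 0.11). Neither separated the genotypes, and Cx3cr1 differed by -0.06 without wild-type heart 5.

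The class II genes varied widely between hearts of both genotypes. H2-Aa, which encodes the alpha chain of the I-A molecule, read 8.88, 8.49, 9.70, 9.62 and 8.94 in wild-type hearts 1 to 5 and 8.23, 9.44, 9.52 and 8.63 in Ezh2-deficient hearts 1 to 4. H2-Ab1, the I-A beta chain, read 9.09, 8.81, 9.80, 9.42 and 8.86 in wild-type and 8.56, 9.46, 9.50 and 8.75 in Ezh2-deficient hearts. Wild-type hearts 3 and 4 and Ezh2-deficient hearts 2 and 3 were high at both genes, and Ezh2-deficient heart 1 was lowest. H2-Eb1, the I-E beta chain, read 8.66, 8.39, 9.27, 8.87 and 8.54 in wild-type and 8.27, 8.87, 8.98 and 8.41 in Ezh2-deficient hearts. Cd74, the invariant chain, read 8.66, 8.45, 9.23, 9.04 and 8.36 in wild-type and 8.24, 8.86, 9.05 and 8.38 in Ezh2-deficient hearts. The same 4 hearts were highest at all 4 genes.

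The genotype differences of the class II genes were smaller in size than their standard errors. They were -0.17 (SE 0.32) for H2-Aa, -0.13 (SE 0.25) for H2-Ab1, -0.11 (SE 0.20) for H2-Eb1 and -0.12 (SE 0.22) for Cd74, with limma adjusted p-values from 0.872 to 0.889. The 95% interval for H2-Aa ran from -0.90 to 0.55. With array weights the differences were larger, -0.47 for H2-Aa, -0.43 for H2-Ab1, -0.36 for H2-Eb1 and -0.36 for Cd74, with limma adjusted p-values from 0.491 to 0.567. By title letter, the 5 arrays of letter x averaged 0.89 above the 4 of letter e at H2-Aa, with every x array above every e array. At H2-Ab1, H2-Eb1 and Cd74 the x arrays averaged 0.61, 0.47 and 0.48 higher, and 4 of the 5 lay above every e array. A contrast of x over e as high as that of H2-Aa was found at few genes, since 99.9% of all genes had a lower one. The percentages for H2-Ab1, Cd74 and H2-Eb1 were 99.8%, 99.5% and 99.4%. Within letter e the genotype differences of the 4 genes lay between -0.30 and -0.18, and within letter x between 0.03 and 0.12, so their direction differed between the letters. The letters were compared after the values had been seen and give no test.

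**Figure D3:**
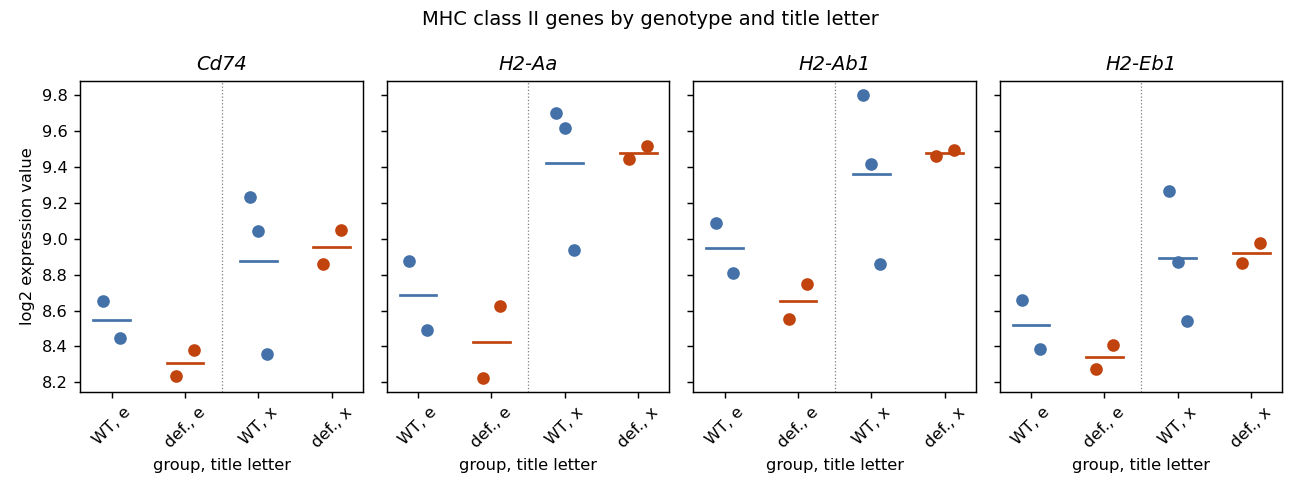
Log2 expression value (y axis) of the 4 MHC class II genes in each heart, by genotype (blue wild type, WT; orange Ezh2-deficient, def.) and title letter (x axis), with group means as lines. The x arrays lie above the e arrays except wild-type heart 5, which overlaps them at 3 of the 4 genes.

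Because the class II genes moved together across hearts, the promoters of those given in the RefSeq table (build GRCm38.p6) were read. It held 2 of the 4, H2-Aa at chr17:34287824-34288073 on the minus strand and H2-Eb1 at chr17:34305617-34305866 on the plus strand, each shown here as the 250 bases before the start, 5′ to 3′. Capitals mark the Y box, CTGATTGG, which binds the factor NF-Y, and before it the letters GCAAC, taken as the core of the X box, which binds the RFX complex; the class II transactivator Ciita acts through proteins bound at these boxes.
H2-Aa: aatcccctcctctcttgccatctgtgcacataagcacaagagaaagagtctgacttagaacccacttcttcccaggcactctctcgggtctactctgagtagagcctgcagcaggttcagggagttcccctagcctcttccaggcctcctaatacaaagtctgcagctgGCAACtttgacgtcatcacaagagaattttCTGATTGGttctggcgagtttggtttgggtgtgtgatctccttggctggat
H2-Eb1: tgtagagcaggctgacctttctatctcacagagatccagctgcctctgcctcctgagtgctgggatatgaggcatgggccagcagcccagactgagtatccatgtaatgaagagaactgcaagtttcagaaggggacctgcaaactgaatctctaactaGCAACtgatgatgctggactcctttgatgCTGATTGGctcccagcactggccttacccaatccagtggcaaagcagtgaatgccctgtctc
The Y box starts 51 bases before the start of H2-Aa and 62 before that of H2-Eb1, and 25 and 24 bases lie between the marked letters. Of 32851 promoters searched on both strands over the same length, 3.83% held CTGATTGG and 29.9% held GCAAC. The arrangement, with GCAAC in the 50 bases before CTGATTGG on 1 strand and the motifs not overlapping, was found in 0.161%. A match describes letters and is no evidence of binding in these hearts.

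The chemokines and the growth factor of the set were the most even group. Csf1, the macrophage growth factor, read 9.06, 9.08, 9.05, 9.09 and 8.88 in wild-type hearts 1 to 5 and 8.96, 9.22, 8.90 and 9.07 in Ezh2-deficient hearts 1 to 4, a difference of 0.007 (SE 0.07). Cxcl12, the ligand of Cxcr4 that holds blood-forming cells in their niche, read 9.83, 9.86, 9.92, 9.87 and 9.64 in wild-type and 9.88, 9.85, 9.62 and 9.98 in Ezh2-deficient hearts, a difference of 0.008 (SE 0.08). The ranges overlapped at both genes, with Ezh2-deficient heart 2 above every wild-type heart at Csf1 and heart 4 at Cxcl12. The 95% intervals were -0.15 to 0.17 and -0.17 to 0.19. Ccl2, the main monocyte attractant, read 6.78, 6.80, 6.72, 6.97 and 6.54 in wild-type and 6.88, 6.79, 6.81 and 6.65 in Ezh2-deficient hearts, a difference of 0.02 (SE 0.08). Its neighbour Ccl7, which acts on the same receptor, read 6.82, 6.45, 6.71, 6.76 and 6.71 in wild-type and 6.75, 6.73, 6.97 and 6.64 in Ezh2-deficient hearts, a difference of 0.08 (SE 0.09). Both chemokine genes read below every array median, and their adjusted p-values were 0.953 and 0.766. The genes of signals that draw in and sustain macrophages thus gave no call, as was the case at the genes of the cells themselves.

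Other genes of the pathway gave no call either, by limma over all probe sets. Of all genes, 48.3% had a higher mean in Ezh2-deficient hearts, and at an unadjusted p under 0.05 5.77% were higher and 5.78% lower. Of 40 further macrophage genes, 34 had a higher mean (median difference 0.13), and 7 were higher and 0 lower at that p. Their mean differed by -0.006 within letter e and by 0.27 within letter x. Igf1, a growth factor, differed by 0.36 (SE 0.11, adjusted p = 0.298), and Axl, a receptor tyrosine kinase related to Mertk, by 0.28 (SE 0.09, adjusted p = 0.342). Stab1, a scavenger receptor also made by endothelium, differed by 0.34 (SE 0.11, adjusted p = 0.342). In whole tissue, which cells made the RNA of these 40 genes cannot be read from the values. At 3 of the 40 genes, Axl, Stab1 and Ctsd, every Ezh2-deficient heart lay above every wild-type heart, against 2.1% of all genes. Ctsd differed by 0.09 (SE 0.05), and its ranges lay close together, up to 12.645 in wild-type and from 12.648 in Ezh2-deficient hearts. Of 17 monocyte genes 13 had a higher mean and 6 were higher at an unadjusted p under 0.05 (all genes 5.77%). Their centred mean ran from -0.36 to -0.04 in wild-type and from 0.06 to 0.22 in Ezh2-deficient hearts, without overlap. It differed by 0.18 within letter e and by 0.35 within letter x. However, Fn1 (0.87, SE 0.19), Vcan (0.88, SE 0.20) and Ifitm3 (0.44, SE 0.12), with the smallest p, are also made by other cells. Fn1 and Vcan are matrix genes of fibroblasts. Nr4a1 differed by 0.88 (SE 0.58) and varied widely, from 8.45 to 11.23 in wild-type hearts. Vcan, Nr4a1 and Fn1 had the largest differences of the list and so weigh most in its mean. The separation of the groups by that mean was not tested without them. Of 9 macrophage transcription factors 8 had a higher mean, with 0 at an unadjusted p under 0.05; Irf8, Runx1 and Ikzf1 differed by 0.14 (SE 0.07), 0.12 (SE 0.08) and 0.13 (SE 0.11).

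Among 13 genes that regulate or load class II, 7 had a higher and 6 a lower mean, and 2 were lower at an unadjusted p under 0.05 (all genes 5.78%). Ciita, the transactivator, read 6.52, 6.52, 6.60, 6.36 and 6.43 in wild-type hearts 1 to 5 and 6.44, 6.52, 6.60 and 6.59 in Ezh2-deficient hearts 1 to 4, below every array median. The groups overlapped (difference 0.05, SE 0.06). Nfyc, a subunit of the factor that binds the Y box, read 9.96 to 10.18 in wild-type and 9.58 to 9.87 in Ezh2-deficient hearts. These ranges did not overlap, as was the case with lower values at 2.19% of all genes, and the difference was -0.29 (SE 0.07, limma adjusted p = 0.201). Rfxank, a subunit of the RFX complex, differed by -0.17 (SE 0.06, adjusted p = 0.36), and Nfya, another subunit of NF-Y, by 0.10 (SE 0.05). At Nfyc the order of hearts did not repeat that of the class II genes, since Ezh2-deficient heart 3 was lowest at Nfyc. The centred mean of the 13 genes was 0.027 and 0.026 in wild-type hearts 3 and 4. It was 0.035 and 0.051 in Ezh2-deficient hearts 2 and 3, and between -0.053 and -0.004 in the other hearts. The hearts highest at class II were thus also the highest by this mean, over a narrow range. Ciita itself did not repeat that order, since wild-type heart 4 was its lowest heart.

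Among 15 genes of class I presentation, 9 had a higher mean, with 1 higher and 1 lower at an unadjusted p under 0.05, near the shares of all genes (5.77% and 5.78%). Psme1, a proteasome activator subunit, differed by -0.21 (SE 0.06), Pdia3, a chaperone of the loading complex, by 0.19 (SE 0.08), and Psmb8, an immunoproteasome subunit, by 0.16 (SE 0.09). Of 8 later complement genes all 8 had a higher mean (median 0.24), and 4 were higher at an unadjusted p under 0.05 (all genes 5.77%). Serping1, the C1 inhibitor, differed by 0.33 (SE 0.10), C4b by 0.47 (SE 0.15) and C5ar1, the receptor for C5a, by 0.26 (SE 0.10). C4b read 7.02 to 7.19 in wild-type and 7.31 to 8.15 in Ezh2-deficient hearts, with heart 2 the highest, as it was at Cd163 and Lgals3. These ranges did not overlap, as was the case with higher values at 2.1% of all genes. Of 27 other chemokines, cytokines and growth factors 18 had a higher mean, with 3 higher and 2 lower at an unadjusted p under 0.05 (all genes 5.77% and 5.78%). Cxcl14, a chemokine, differed by -0.44 (SE 0.11), Ccl11, eotaxin, by -0.23 (SE 0.09), and the cytokine gene Il6, which read below 3.7 throughout, by 0.20 (SE 0.07).

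Markers of fibroblasts and endothelium were low in wild-type heart 5 and high in Ezh2-deficient hearts 2 and 3, as the set was, but not in all hearts: they were also high in Ezh2-deficient hearts 1 and 4 and low in wild-type heart 4, where the set was not. Their part in the result was not tested. All list counts here read against the same shares of all genes, 48.3% higher in mean, 5.77% higher and 5.78% lower at an unadjusted p under 0.05. Of 15 fibroblast markers all 15 had a higher mean and 11 were higher at an unadjusted p under 0.05 (median 0.52), among them Postn (1.37, SE 0.19), Mfap5 (0.80, SE 0.15) and Vim (0.54, SE 0.13). The mean level of that list ran from 10.3 to 10.9 in wild-type and from 11.1 to 11.3 in Ezh2-deficient hearts. Of 13 endothelial markers all 13 had a higher mean (median 0.17) and 4 were higher at an unadjusted p under 0.05, with Vwf at 0.75 (SE 0.17), Eng at 0.43 (SE 0.10) and Pecam1 at 0.33 (SE 0.11). Both lists were lowest in wild-type heart 5, as most of the set was. Unlike the macrophage genes, fibroblast markers were higher within both letters, by 0.31 within e and 0.73 within x. Of 10 heart muscle genes 8 had a lower mean (median -0.06), with Tnni3 at -0.17 (SE 0.04), Tnnt2 at -0.09 (SE 0.04) and Myl2 at -0.06 (SE 0.04).

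Markers of blood cells stood out in Ezh2-deficient heart 3. Its centred mean was 0.50 for 7 erythrocyte markers (wild-type hearts -0.33 to 0.05), 0.30 for 15 T and NK cell markers (-0.09 to 0.06) and 0.36 for 8 B cell markers (-0.19 to -0.01). Of these lists 5 of 7, 9 of 15 and 5 of 8 genes had a higher mean, with 0 at an unadjusted p under 0.05 in each. Klf1, an erythroid transcription factor, differed by 0.08 (SE 0.05), and Alas2, the enzyme of haem synthesis in red cells, by 0.82 (SE 0.52). In Ezh2-deficient heart 3 Alas2 read 11.57, against 8.10 to 9.75 in wild-type hearts, whereas Tfrc read 11.56, the lowest Ezh2-deficient value. The erythrocyte list had 16 entries, and its haemoglobin genes were not measured. Cd3e of the T cell receptor complex differed by 0.16 (SE 0.09) and Ms4a1, which encodes CD20, by 0.35 (SE 0.16). Of 13 neutrophil markers 6 had a higher mean, with 0 at an unadjusted p under 0.05. Their mean was highest in wild-type heart 4 (0.32) and Ezh2-deficient heart 3 (0.22); Csf3r differed by 0.11 (SE 0.10). In 11 dendritic cell markers (8 higher in mean, 2 at an unadjusted p under 0.05) Bst2 differed by 0.17 (SE 0.07), in 9 mast cell markers (5 and 0) Ms4a2 by -0.08 (SE 0.06), and in 6 platelet markers (5 and 1) Itgb3, also made by other cells, by 0.24 (SE 0.07). The neutrophil and the T and NK lists held 0 genes with a mean over the hearts above every array median, whereas 26 of the 33 genes of the set had one.

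**Figure D4:**
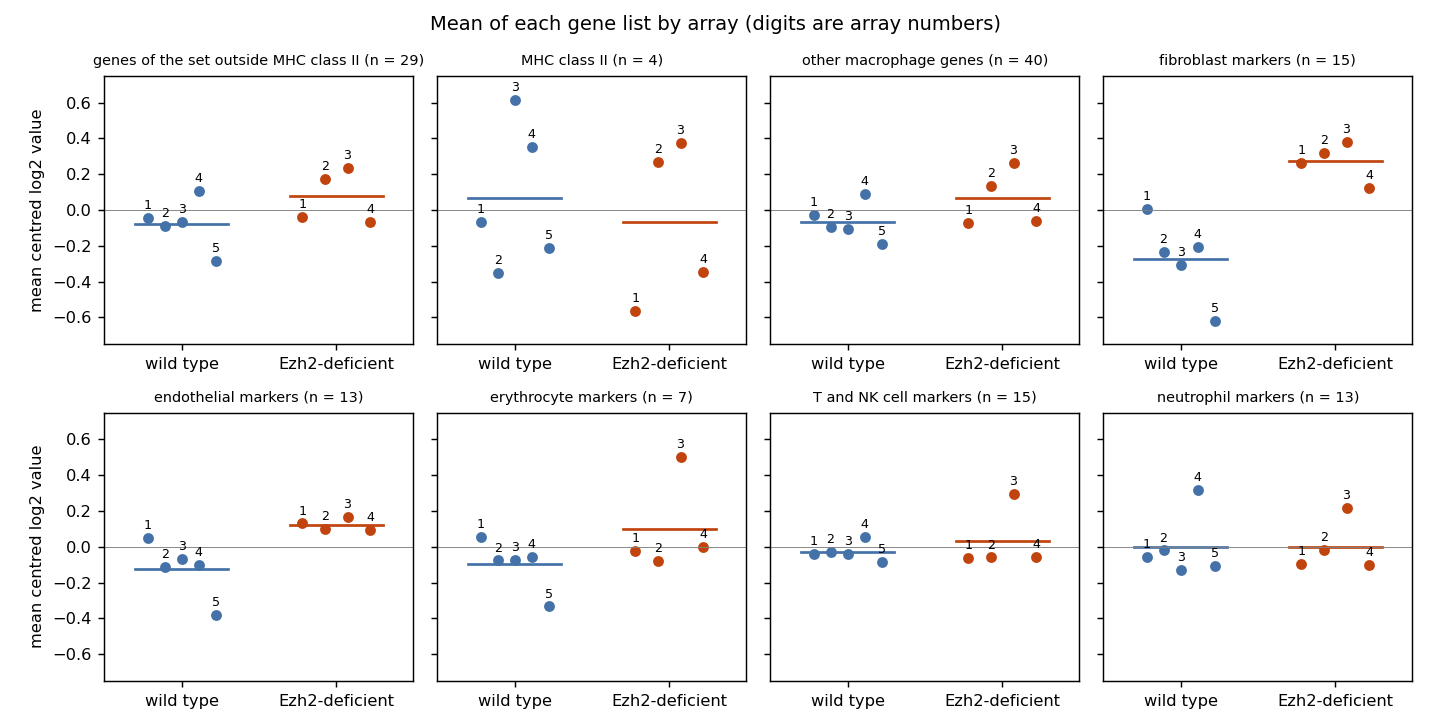
Mean centred log2 value (y axis) of 8 gene lists in each heart (points, with the number of the heart) of either group (x axis), with group means as lines. Among the lists shown, fibroblast and endothelial markers separate the groups, and the macrophage lists and MHC class II do not. Ezh2-deficient heart 3 stands apart for erythrocyte and T and NK cell markers. The monocyte genes, whose list means also separate the groups, are not shown, and that list includes matrix genes of fibroblasts.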

How the data were processed

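Per the submitters' processing notes, the authors made the log2 values with Affymetrix Power Tools and RMA; no version or setting is named in the sources used here. The deposited table holds 28815 probe sets for 9 arrays, with values from 2.18 to 15.0, and no detection call. Of these probe sets 21780 had 1 gene symbol, 1605 several and 5430 none in the annotation used. Median polish, a step of RMA, often gives equal values. The genotypes were compared with limma 3.58.1 in R 4.3.3 on all 9 arrays, with two-sided p-values adjusted across every probe set by the Benjamini-Hochberg method, and differences are Ezh2-deficient minus wild type. The script was tested on simulated data. Each sample was treated as a separate heart, as the labels speak of 5 and 4 mice, and the number of arrays limits the precision, with a median standard error of 0.0674 over all differences. Replicate numbers follow the order of the samples and pair nothing. The genes of the set and 17 other lists were chosen with earlier results of these data known. Every measured member was named, with values per heart for members at an unadjusted p under 0.05, class II, C1q, chemokines and the growth factor, and Ciita. From each other list up to 3 genes with the smallest p were named. Ctsd, Myl7, Nr4a1 and Tfrc were added for their ranges or values. The alternatives were normalization, a filter on dim probe sets, the mean of all single-symbol probe sets of a gene, the title letter, Y-linked genes, array weights, an intensity trend and left-out arrays.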

Additional observations from a re-analysis of the deposited data

Results flagged for a closer look

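In 10 of 66 tests, each of 1 gene in 1 genotype, the highest or lowest heart stood apart from the others by Dixon's test, where chance flags about 1 in 20. The genes share hearts, so these results are not independent. In Ezh2-deficient heart 3, Ptprc read 8.562 (the other 3 hearts 8.07 to 8.121), Cx3cr1 read 8.467 (8.263 to 8.288) and Fcgr1 read 7.035, where the other 3 all read 6.98. With 3 tied values, any other value in the remaining heart is flagged. In Ezh2-deficient heart 2, Lgals3 read 8.226 (7.816 to 7.85). In wild-type heart 5, Csf1r read 8.691 (the other 4 hearts 9.171 to 9.336), Cd14 read 6.543 (6.769 to 6.828) and Csf1 read 8.882 (9.047 to 9.087). In wild-type heart 4, Tyrobp read 8.119 (7.708 to 7.825), Fcgr1 read 7.153 (6.931 to 6.988) and Folr2 read 8.803 (8.507 to 8.55). All 10 fell in 4 of the 9 hearts, low in wild-type heart 5 and high in the other 3.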

How the results depend on the processing

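By limma 0 of 33 genes of the set passed an adjusted p of 0.05 under any of 21 alternatives, and the lowest adjusted p was 0.06881 (Mertk with array weights). Of 686 differences of single genes under an alternative, 621 kept their direction and 65 reversed. The intensity trend and the filter on dim probe sets could not change a difference. Nor could the mean of all single-symbol probe sets of a gene, as each measured gene of the set had 1. Directions were thus kept under these alternatives by construction. In all, 10 genes never reversed, Mertk, Cd163, Lyz1 and Lyz2 among them. The number of probe sets past the threshold, 10 in the report, was 37 with array weights, 17 with arrays centred on their medians, 17 without dim probe sets, 17 with the title letter as a block, 3 with the mean of Y-linked genes as a covariate, 0 within letter e and 0 within letter x, where fewer arrays were compared, 5 without wild-type hearts 4 and 5, and 6 without wild-type heart 5 and Ezh2-deficient heart 3, an alternative chosen after seeing the data. With each heart left out it was 3 to 15, with 3 without Ezh2-deficient heart 1, Ezh2-deficient heart 2 or wild-type heart 4, 4 without wild-type heart 3 and 5 without wild-type heart 2. Genes of the set whose groups did not overlap numbered 10 within e (35% of all genes), 14 within x (27.8%), 1 without wild-type heart 5 and Ezh2-deficient heart 3 (7.93%), 1 without wild-type hearts 4 and 5 (9.1%) and 0 to 1 with each heart left out. Within e, 15 genes had a higher mean and the median difference was -0.0135; with each heart left out the median ran from 0.0693 to 0.2023.

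Differences reversed with array weights at Fcgr1 (0.0023), Timd4 (0.0145) and Cx3cr1 (-0.0255), with centred arrays at Cxcl12 (-0.0072) and Csf1 (-0.0077), with the Y-linked covariate at Folr2 (-0.0041) and Ccl2 (-0.0383), and with the letter as a block at Cxcl12 (-0.0035). Within e they reversed at Tyrobp (-0.111), Laptm5 (-0.0025), Adgre1 (-0.0135), Csf1r (-0.082), Cd68 (-0.0295), Cd14 (-0.0355), Fcgr1 (0.037), Mrc1 (-0.058), Folr2 (-0.0735), Timd4 (0.0325), C1qa (-0.0555), C1qb (-0.0305), C1qc (-0.097), Cx3cr1 (-0.214), Ccl2 (-0.0245) and Csf1 (-0.0535). Within x they reversed at Cd74 (0.0772), H2-Aa (0.0595), H2-Ab1 (0.1198), H2-Eb1 (0.0283) and Cxcl12 (-0.0735). Without wild-type heart 5 and Ezh2-deficient heart 3 they reversed at Ptprc (-0.0476), Tyrobp (-0.07), Cd52 (-0.0322), Cd14 (-0.0317), Mrc1 (-0.0052), Folr2 (-0.036), Cx3cr1 (-0.1105) and Ccl2 (-0.0428). Without wild-type hearts 4 and 5 they reversed at Fcgr1 (0.0358), Timd4 (0.0211), Cx3cr1 (-0.0958), Cxcl12 (-0.0392) and Csf1 (-0.0233). With each heart left out, the differences that reversed at least once ran from -0.0337 to 0.0742 at Ccl2, -0.255 to 0.0163 at Cd74, -0.0533 to 0.0517 at Csf1, -0.063 to 0.0918 at Cx3cr1, -0.0413 to 0.0773 at Cxcl12, -0.0252 to 0.0303 at Fcgr1, -0.0182 to 0.086 at Folr2, -0.3609 to 0.0688 at H2-Aa, -0.2737 to 0.0403 at H2-Ab1, -0.2289 to 0.0177 at H2-Eb1, -0.0395 to 0.0443 at Timd4 and -0.038 to 0.2507 at Tyrobp. The cause of these shifts was not tested.

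No paired analysis was possible because the replicate numbers follow the order of the samples and the numbers in the titles pair no hearts. The 9 arrays limit the precision, and dim genes such as Ccr2, Cd14, Cd52, Fcgr1, Timd4 and Il6 have no detection call.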
